A study of Mus musculus with 6 samples.

Results

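Skin with and without Sox4 was compared for 10 genes that serve the energy supply of skeletal muscle in the mouse: Ckm, Ckmt2, Pygm, Phkg1, Pfkm, Eno3, Pgam2, Fbp2, Slc2a4 and Mb. They were taken by name, as the array probes whose transcript accession maps to these symbols, and all 10 were among the 22823 genes and unnamed transcripts tested. All of them are enzymes or enzyme subunits except Slc2a4, a glucose transporter, and Mb, an oxygen-binding protein. The arrays carried RNA of whole skin from 6 untreated male mice on a mixed C57Bl6/129Sv background, labelled as telogen, when hair follicles rest. The 3 wild-type (WT) mice were 20, 19 and 18 weeks old (replicates 1, 2 and 3). The 3 mice with a conditional knockout of the transcription factor Sox4 in skin (KO) were 17, 18 and 16 weeks old. The labels name skin as the site of the deletion and give no driver for it. Within a group the 3 ages differ, so the arrays were taken as different animals.

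The targeted gene was read first. Sox4 stood at 0.41, 0.65 and 0.75 in the WT replicates and at −2.94, −2.88 and −3.05 in those of KO (log2 signal minus the 75th percentile of the array). It was 11.8-fold lower in KO (limma log2 difference −3.56, SE 0.13, adjusted p = 0.00135), with all KO arrays below all WT arrays. The authors' deposited value table carries its group headings the other way round, so its signs oppose those given here. Groups follow the labels of the scanner output throughout.

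The KO arrays were not alike in hair genes. Of 8 listed genes of the hair shaft and its sheath, which growing follicles make, 6 were measured. Their median level relative to the WT mean was 6.19 in KO replicate 1 and 5.44 in KO replicate 2, against −0.17 in KO replicate 3 and −0.12 to 0.27 in WT. Krt71, an inner root sheath keratin, stood at 7.22 and 6.73 in the first 2 KO replicates and at −2.27 in the third, with WT between −2.39 and −1.19. These genes thus set KO replicates 1 and 2 apart and go against the label of telogen for them, while KO replicate 3 and the WT arrays were low. None of the 6 was called (median difference 4.02, all positive). Higher in KO without overlap were 2 of them, beside 7.56% of all genes. Padi3, 1 of these 2, was kept only through KO, being well above background on 3 KO arrays and 1 WT array. The part of the hair gene difference in the members' values was not tested. The members are given below also with KO replicate 3 as the only KO array.

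Muscle fibres hold a small store of ATP and refill it by several routes. Creatine kinases pass phosphate between ATP and creatine, glycogen phosphorylase releases sugar from glycogen, and glycolysis turns that sugar into ATP. Glucose enters the fibre through an insulin-responsive transporter, and myoglobin stores oxygen for the mitochondria. For many of these steps vertebrates carry a form typical of muscle and 1 or more forms used by other tissues. Mouse skin has a thin sheet of skeletal muscle beneath the dermis.

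All 10 genes lay higher in every KO skin than in any WT skin, by 2.70-fold (Slc2a4) to 5.12-fold (Phkg1), and none passed the threshold. Over all genes tested, 7.56% were higher in KO with no overlap between the groups. With limma and Benjamini-Hochberg adjustment over all genes, 0 of the 10 were called at 0.05 and adjusted p ran from 0.228 to 0.321. Of all genes 0.0219% were called in either direction and 0.00438% as higher in KO. At an unadjusted p under 0.05 all 10 lay higher, beside 6.26% of all genes in that direction. The median difference of the members was 1.98 on the log2 scale, beside −0.08 over all genes. Exact two-sided permutation gave p = 0.1 for each member, the smallest that 3 arrays against 3 allow.

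All members were measured above background, at different brightness. Every probe of the 10 genes was well above background on all 6 arrays, no spot was saturated, and between 52.1% and 66.4% of all probes were well above background. Fbp2 was the dimmest, with signals of 84.9 to 204 in WT, below the 75th percentile of the array on 4 of the 6 arrays. The epidermal keratins and dermal collagens that mark skin were well above background on every array. Replicate number limits the precision of every value, and levels are given as log2 signal minus the 75th percentile of the array, so they are comparable between arrays but not between genes.

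Promoter sequence was at hand for 9 of the 10 genes, and windows of 300 bases (250 before to 50 after the start, RefSeq, GRCm38.p6) were searched because the members lay higher in the same arrays. The hexamer CAGCTG, a form of the E-box CANNTG that muscle regulatory factors bind, was in 7 of the 9: Ckm, Ckmt2, Pygm, Eno3, Pgam2, Fbp2 and Mb. Of all 27025 genes with a window, 18.3% held it. Among the forms of these proteins used by other tissues, 1 of 12 with a window held it. Among genes of the muscle contractile apparatus and its calcium handling, 5 of 12 did. The other letters searched were CANNTG as a whole (9 of 9 members, 75.0% of all genes), CACCTG (5 of 9, 22.6%) and CATTCC (2 of 9, 16.6%). TATAAA (0 of 9, 9.77%), the MEF2 site (1 of 9, 3.70%) and the CArG box (0 of 9, 1.81%) were searched too. TATAAA was searched only as written, the others on both strands. A gene was counted if any of its windows held the letters. The 9 members had 14 windows and the 27025 genes 32851, so the members had more windows per gene. CAGCTG and CACCTG are both counted within CANNTG, and the motifs were picked after the members' values were known. The promoters of Pygm, Pgam2, Fbp2 and Ckm are shown, chosen for the place of the hexamer, which is in capitals. In Pygm it starts 168 and 8 bases upstream of the start, in Pgam2 125 bases upstream (with the MEF2 site at 80), in Fbp2 107 bases upstream, and in Ckm at the far edge of the window, 249 bases upstream.
Pygm, chr19:6384158-6384457 (plus strand): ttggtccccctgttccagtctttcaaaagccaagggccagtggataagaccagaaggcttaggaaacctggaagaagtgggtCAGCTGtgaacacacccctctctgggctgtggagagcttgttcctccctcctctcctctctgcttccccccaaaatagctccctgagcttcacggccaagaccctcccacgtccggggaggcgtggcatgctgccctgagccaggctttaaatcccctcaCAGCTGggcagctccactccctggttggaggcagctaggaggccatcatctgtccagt
Pgam2, chr11:5803747-5804046 (minus strand): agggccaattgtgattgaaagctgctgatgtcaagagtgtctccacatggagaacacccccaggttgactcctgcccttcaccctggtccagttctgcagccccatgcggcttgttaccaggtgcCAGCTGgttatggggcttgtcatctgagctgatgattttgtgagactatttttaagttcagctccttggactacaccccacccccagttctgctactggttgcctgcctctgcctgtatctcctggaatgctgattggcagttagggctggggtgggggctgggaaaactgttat
Fbp2, chr13:62858351-62858650 (minus strand): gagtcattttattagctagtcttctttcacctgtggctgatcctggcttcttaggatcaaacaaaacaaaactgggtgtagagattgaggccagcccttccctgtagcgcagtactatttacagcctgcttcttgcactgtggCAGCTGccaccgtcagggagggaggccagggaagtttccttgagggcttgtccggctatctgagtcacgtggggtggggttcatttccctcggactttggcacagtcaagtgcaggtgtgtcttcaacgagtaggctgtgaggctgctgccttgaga
Ckm, chr7:19410844-19411143 (plus strand): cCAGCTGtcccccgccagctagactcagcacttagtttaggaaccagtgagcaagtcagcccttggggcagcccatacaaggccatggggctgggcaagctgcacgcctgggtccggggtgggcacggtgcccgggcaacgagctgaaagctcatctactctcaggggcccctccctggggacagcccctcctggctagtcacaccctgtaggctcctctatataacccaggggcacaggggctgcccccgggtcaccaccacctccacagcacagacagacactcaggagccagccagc
These matches are letters in a window and were not tested as binding sites.

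**Figure D1:**
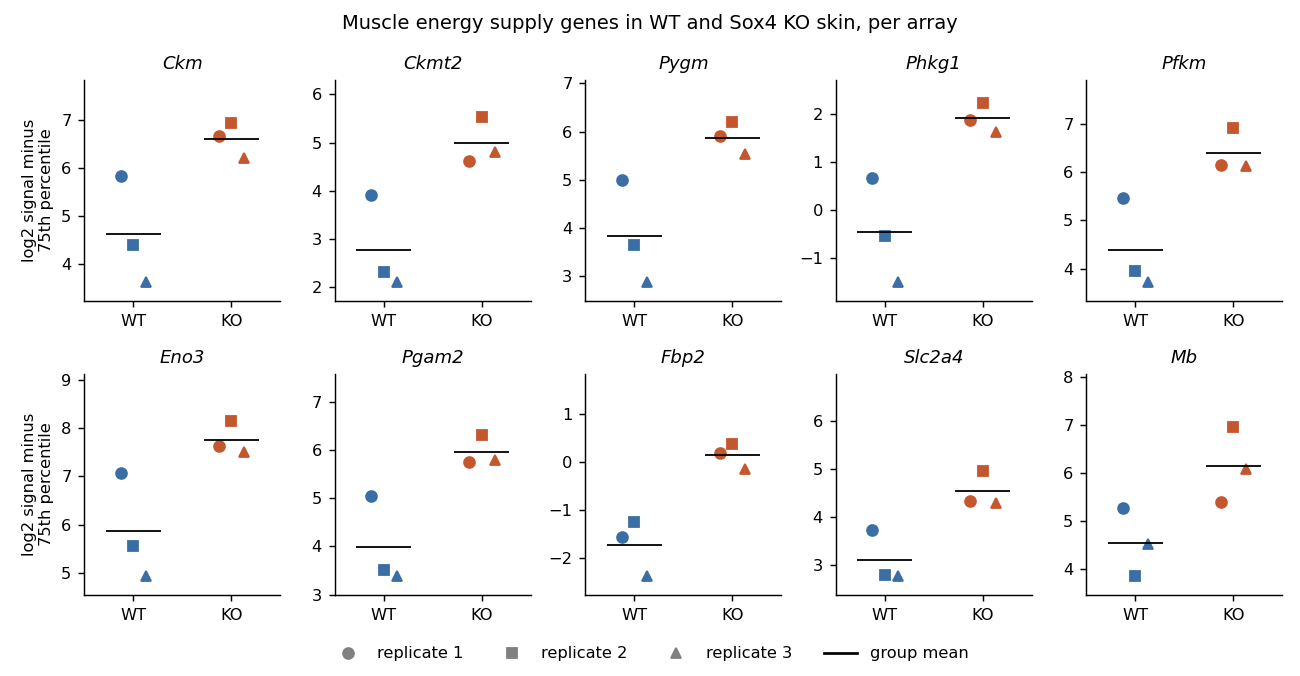
Level of each of the 10 genes on each array (vertical axis: log2 signal minus the 75th percentile of the array, same span in every panel; marker shape: replicate; line: group mean; n = 3 per group). All KO points lie above all WT points of the same gene, and WT replicate 1 is the WT array nearest to KO for 9 of the 10.

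The creatine kinases were about as far apart between groups as the set as a whole. Ckm, the cytosolic muscle creatine kinase, stood at 5.84, 4.39 and 3.63 in the WT replicates (1, 2, 3) and at 6.66, 6.92 and 6.21 in those of KO. In signal units the WT arrays ran from 5406 to 21753 and the KO arrays from 36516 to 61589. The difference was 1.98 (SE 0.54, adjusted p = 0.295), with a gap of 0.37 between the highest WT and the lowest KO array. Ckmt2, the mitochondrial creatine kinase of striated muscle, stood at 3.90, 2.30 and 2.10 in the WT replicates and at 4.62, 5.53 and 4.81 in those of KO. Its difference was 2.22 (SE 0.51, adjusted p = 0.274), and the gap between the groups was 0.71. For both genes the WT values spread more widely than the KO values, with a WT range of 2.21 against 0.71 for Ckm and 1.80 against 0.91 for Ckmt2.

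Glycogen breakdown enzymes showed the same arrangement of arrays. Pygm, the muscle glycogen phosphorylase, stood at 4.99, 3.65 and 2.88 in the WT replicates and at 5.90, 6.19 and 5.54 in those of KO, a difference of 2.04 (SE 0.52, adjusted p = 0.278). Phkg1, the catalytic subunit of the kinase that switches phosphorylase on, stood at 0.67, −0.53 and −1.50 in the WT replicates and at 1.86, 2.23 and 1.61 in those of KO. At 2.36 (SE 0.52, adjusted p = 0.274) its difference was the highest among the 10 members. A dimmer probe of Phkg1 gave 2.39. Of 13 other genes of glycogen synthesis and breakdown, 12 had positive differences (median 1.05) and 11 had no overlap. None of the 13 was called. Phkb, another subunit of phosphorylase kinase, had 1.13 (SE 0.18, adjusted p = 0.228), and Phka1, its muscle regulatory subunit, 1.66 (SE 0.35, adjusted p = 0.274). Pgm1, which interconverts glucose phosphates, had 1.1 (SE 0.25, adjusted p = 0.274), while Pgm2 had −0.10.

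Along glycolysis 3 muscle forms were measured. Pfkm, the muscle phosphofructokinase that commits sugar to glycolysis, stood at 5.46, 3.96 and 3.72 in the WT replicates and at 6.15, 6.92 and 6.12 in those of KO (difference 2.02, SE 0.48, adjusted p = 0.274). Eno3, the muscle enolase, stood at 7.08, 5.56 and 4.94 in the WT replicates and at 7.63, 8.15 and 7.51 in those of KO (1.91, SE 0.53, adjusted p = 0.297). Pgam2, the muscle phosphoglycerate mutase, stood at 5.04, 3.51 and 3.39 in the WT replicates and at 5.75, 6.31 and 5.80 in those of KO (1.97, SE 0.45, adjusted p = 0.274). In all 3, WT replicate 1 stood between the other WT arrays and the KO arrays. A list of 12 further genes of glycolysis, most of them expressed in many tissues, had a median difference of 0.68, with 10 positive, 7 without overlap and none called. Those with the smallest p were Pfkfb1 (0.93, SE 0.14, adjusted p = 0.199), which makes an activator of phosphofructokinase, Pkm (0.84), the pyruvate kinase, and Pgk1 (0.59), the phosphoglycerate kinase.

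Fbp2, the muscle fructose bisphosphatase, which runs against phosphofructokinase, differed from the other members in its WT order. It stood at −1.57, −1.25 and −2.36 in the WT replicates and at 0.20, 0.37 and −0.15 in those of KO. Here WT replicate 2, not replicate 1, was nearest to KO. The difference was 1.87 (SE 0.30, adjusted p = 0.228), the smallest p of the set, and the gap of 1.1 between the groups was the widest among the members.

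Glucose uptake and oxygen storage had the lowest differences of the set. Slc2a4, the insulin-responsive glucose transporter of muscle and fat (GLUT4), stood at 3.73, 2.80 and 2.78 in the WT replicates and at 4.34, 4.97 and 4.30 in those of KO, a difference of 1.43 (SE 0.31, adjusted p = 0.274). Mb, myoglobin, stood at 5.28, 3.87 and 4.54 in the WT replicates and at 5.41, 6.95 and 6.08 in those of KO, a difference of 1.59 (SE 0.49, adjusted p = 0.321). The gap between groups was 0.13 for Mb, the narrowest among the 10, and lay between WT replicate 1 and KO replicate 1. Mb was also the only member whose lowest WT array was replicate 2. Among genes of white fat, which also uses Slc2a4, Adipoq had −0.34, Plin1 −0.22 and Lep −1.78, against 0.65 for Cfd, and none of these 4 was called.

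Most forms of the same proteins used by other tissues lay near or below the WT level. Of 14 such genes, 11 had negative differences (median −0.15), 5 lay lower and 1 lay higher in KO without overlap, and none was called. Over all genes 11.8% were lower in KO without overlap. Ckb, the brain-type creatine kinase, had −0.06 (SE 0.15) beside 1.98 for Ckm, and Ckmt1, the ubiquitous mitochondrial form, had −0.30 beside 2.22 for Ckmt2. The liver and brain glycogen phosphorylases Pygl and Pygb had −0.17 and −0.15, and the phosphorylase kinase subunit Phkg2 had −0.06. Pfkl and Pfkp, the liver and platelet phosphofructokinases, had −0.58 (SE 0.12, adjusted p = 0.274) and −0.29, both without overlap. Eno1 and Eno2 had −0.16 and −0.03, Pgam1 −0.38 and the widespread glucose transporter Slc2a1 −0.43, with Slc2a3 at 0.24. Cygb, a globin related to myoglobin, had 0.14. Fbp1, the liver fructose bisphosphatase, was the exception at 2.14 (SE 0.87, adjusted p = 0.420). It stood at −1.18, −3.17 and −0.01 in the WT replicates and at 1.08, 1.48 and −0.50 in those of KO, so the groups overlapped and KO replicate 3 lay within the WT range.

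**Figure D2:**
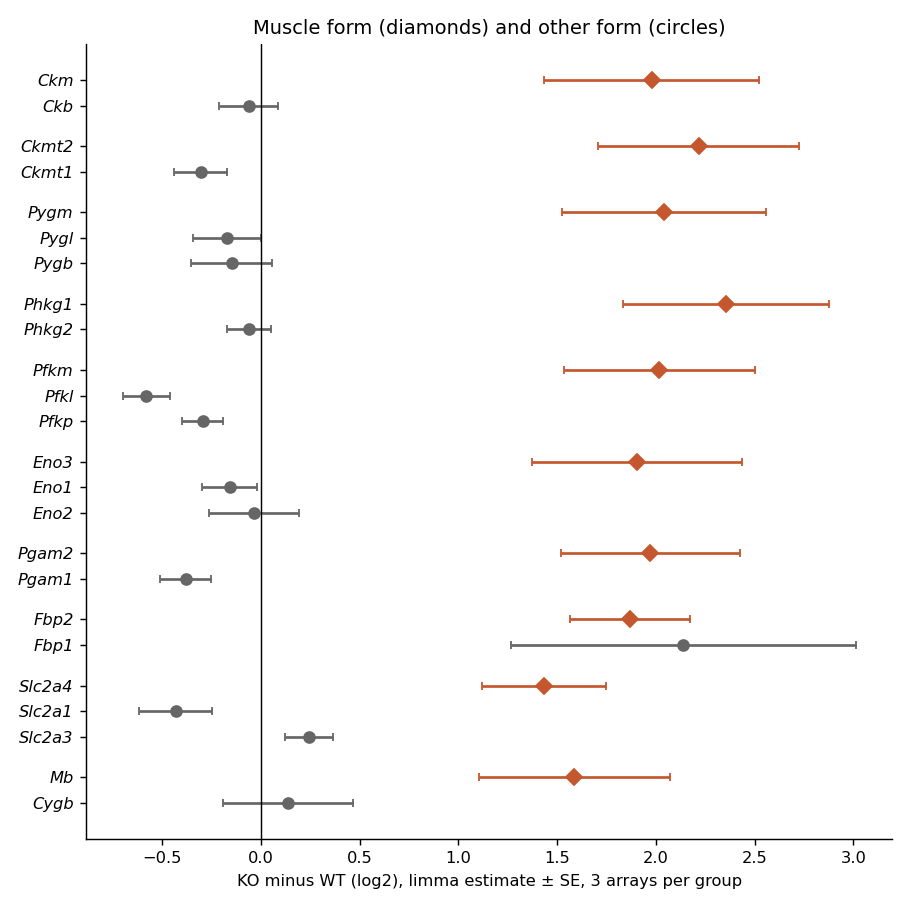
KO minus WT on the log2 scale (limma estimate, bars ± SE, 3 arrays per group) for each member (diamonds) and the forms used by other tissues (circles). The 10 diamonds lie between 1.43 and 2.36 and 13 of the 14 circles between −0.58 and 0.24, with Fbp1 at 2.14.

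Phosphate transfer and purine genes were mixed. Of 8 listed, 6 were positive, 4 lay higher without overlap and none was called (median 0.85). Slc16a3, a lactate exporter, had 1.44 (SE 0.31, adjusted p = 0.274), Ak1, adenylate kinase, 1.29 (adjusted p = 0.291) and Adssl1, the muscle adenylosuccinate synthase, 1.88 (adjusted p = 0.295). The creatine transporter Slc6a8 had −0.11 and the creatine synthesis enzymes Gamt and Gatm 0.10 and 0.40, all with overlap, beside the 1.98 of Ckm. Among 7 regulators of muscle metabolism the median was 0.70, with 4 higher and 1 lower without overlap and none called. Prkaa2, a catalytic subunit of the energy sensor AMPK, had 1.42 (SE 0.41, adjusted p = 0.304), Ppargc1a, a coactivator of mitochondrial genes, 0.71 (adjusted p = 0.309) and Mef2d, a muscle transcription factor, 0.70 (adjusted p = 0.310). Mef2a had −0.48.

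Genes of the contractile apparatus and its calcium handling, called contractile genes here, lay higher in KO as well. All 18 listed fast-fibre and general skeletal muscle genes had positive differences (median 1.81), 14 without overlap and none called, and all 18 were well above background in both groups. Their summed signal, in multiples of the array's 75th percentile, ran from 758 to 2793 in WT and from 3176 to 4184 in KO. In whole skin, more muscle cells and more RNA per muscle cell cannot be told apart, and the part of muscle content in the members' differences was not tested. Slow-fibre genes overlapped between groups. The 4 of 6 that passed the filter on dim probes had negative differences (median −0.54) and were highest in WT replicate 3. Myh7 passed only through WT, with 2 KO arrays well above background, so the filter favoured a negative sign for it. Tnni1 passed only through KO, with 2 WT arrays well above background, so there the filter favoured a positive sign. Without WT replicate 3 the median of the 4 was 0.17 with 2 of the 4 positive, so the sign of the median rests on that array. On slide 1, with 1 array per group, the median was 0.25 with all 4 positive. Of 6 genes of muscle precursors and regenerating fibres, 3 were measured and all had positive differences. Myod1 and Myog passed the filter only through KO, with 2 WT arrays well above background, so the filter favoured a positive sign for them. Both were lowest in WT replicate 2, at −4.94 and −4.53. Myod1 had 0.69 and Myog 0.04, both with overlap. Myh8, a myosin of newborn and regenerating fibres, had 1.23 (SE 0.49, adjusted p = 0.415) without overlap. Its WT replicates stood at 9.24, 7.99 and 7.14, highest in replicate 1 and lowest in replicate 3, as for most members. Pax7, Myf5 and Myh3 were not well above background on all arrays of either group. Nor were the heart genes Myl7, Nppa and Myh6 or Ucp1 of brown fat, while the heart troponin Tnni3 had −0.27. Smooth muscle, epidermis and fibroblast genes had medians of 0.04, −0.18 and −0.15, and the 2 measured brown fat genes −0.55. The 2 measured red blood cell genes had a median of 0.41 with overlap, and were highest in KO replicate 2 and, among WT, in replicate 1, as most members were. The part of blood in the members' differences was not tested.

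**Figure D3:**
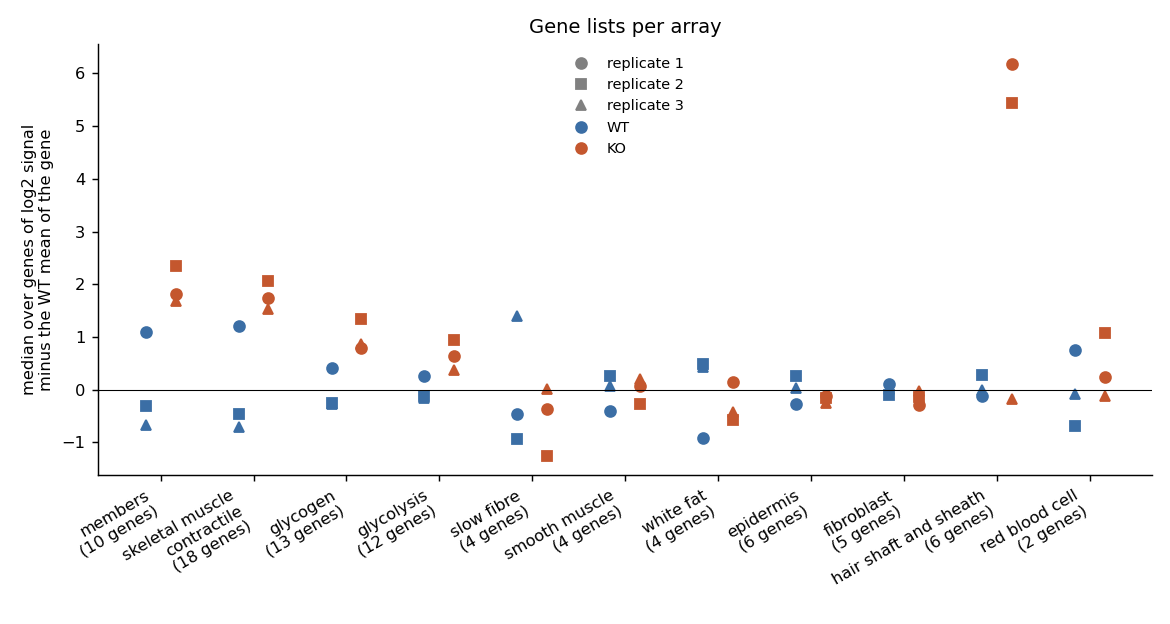
Median over the genes of each list of the log2 signal minus the gene's WT mean, per array (colour: group; marker shape: replicate; number of genes below each name). The members and the contractile genes place the arrays alike, with KO between 1.52 and 2.34, WT replicate 1 at 1.1 and 1.21 and the other WT arrays below 0. The hair list is high in KO replicates 1 and 2 only, at 6.19 and 5.44.

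Set against the contractile genes of the same array, the members were closer between groups. After the median centred profile of the 18 contractile genes, itself 1.74 higher in KO, was taken from each member, the KO minus WT differences ran from −0.31 (Slc2a4) to 0.61 (Phkg1), with a median of 0.23. By this measure 7 of the 10 members overlapped between groups. Ckmt2 (0.47), Phkg1 (0.61) and Pgam2 (0.23) lay higher in every KO array than in any WT array, by gaps of 0.08, 0.12 and 0.002, so that Pgam2 was in effect level with the highest WT array. By the same measure 0.0964% of all genes lay higher, a share that the subtraction itself lowers for genes without the contractile profile. For Phkg1 the values relative to the WT mean were −0.08, 0.46 and −0.38 in WT and 0.62, 0.64 and 0.58 in KO. Slc2a4 and Mb then lay lower in KO, at −0.31 and −0.15. In WT, Fbp2 spread most, from −1.04 in replicate 1 to 1.01 in replicate 2. No test was made of these differences, which rest on a list chosen with the members' values known.

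**Figure D4:**
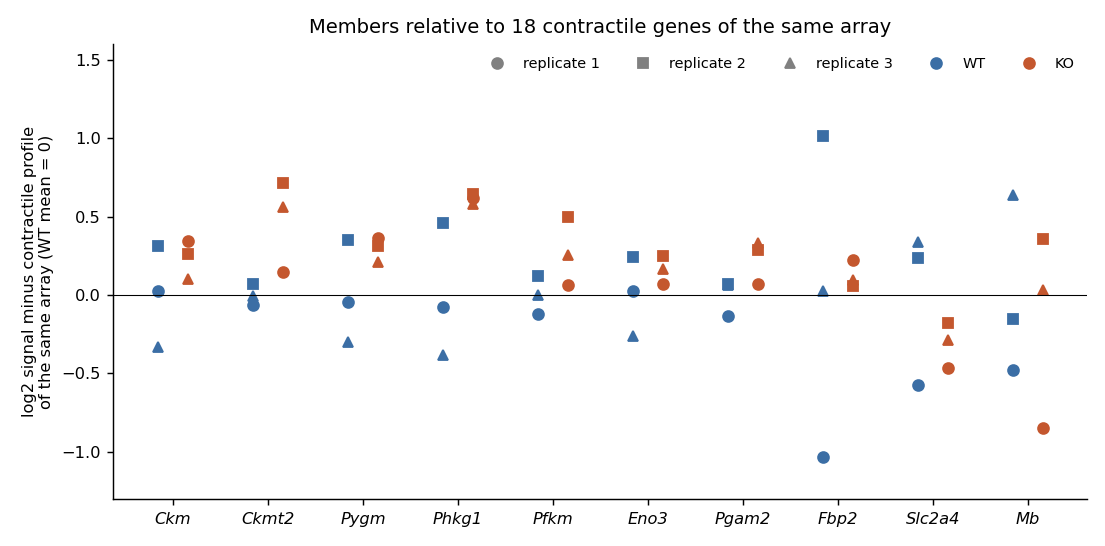
Log2 signal of each member minus the contractile gene profile of the same array, with the WT mean of each gene set to 0 (colour: group; marker shape: replicate). KO and WT points overlap for 7 of the 10 genes, and KO lies above WT for Ckmt2 and Phkg1 and, by 0.002, for Pgam2.

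The order of the arrays within each group was shared by most members. KO replicate 2 was the highest KO array for all 10 (30.6% of all genes), and WT replicate 1 was the highest WT array for 9 (32.6%). These are the oldest mouse of each group. Levels followed age through all 3 WT mice for 8 members (13% of all genes), through all 3 KO mice for 7 (14.0%), and in both groups for 6 (2.31%). The KO mice were 16 to 18 weeks old and the WT mice 18 to 20, sharing only week 18. Age and genotype thus cannot be told apart between the groups. With age as a covariate the median difference was 3.29. Phkg1 was called in that limma fit (3.75, adjusted p = 0.0439), beside 0.574% of all genes called higher. The fit carries the age trend within the groups over to ages that the other group lacks. The KO replicates sit on 3 different slides, so age, slide and animal cannot be told apart among them. WT replicates 2 and 3 share slide 2, and there replicate 2 lay above replicate 3 for 9 members (51.8% of all genes); age and animal cannot be told apart in that step.

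On slide 1, which held WT replicate 1 and KO replicate 3, the members' median difference was 0.71, and on slide 2, with WT replicates 2 and 3 and KO replicate 1, it was 2.34. Each member was higher in KO on both slides. Fbp2 was nearest to equal in ratio, at 1.42 and 2.0, and Ckm furthest apart, at 0.37 and 2.65. KO replicate 2 was alone on slide 3. With slide as a block the median was 1.66 and adjusted p was at least 0.560 for every member.

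Leaving out 1 WT array changed the calls. Without WT replicate 1, 8 members passed the threshold, with differences from 1.74 (Slc2a4) to 2.92 (Phkg1) and adjusted p from 0.0319 to 0.0487, and Fbp2 and Mb did not. In that comparison 1.16% of all genes were called higher. None of the 10 was called when any other single array was left out. The members' median over the 6 fits that leave out 1 array ran from 1.57 to 2.53. All 10 stayed higher without overlap in each, which was fixed in advance, since dropping an array cannot create overlap. Of all genes 13.3%, 10% and 10.1% were so without WT replicate 1, 2 or 3, and 11.9%, 9.92% and 11.4% without KO replicate 1, 2 or 3, beside 7.56% with all arrays. With KO replicate 3 as the only KO array, a setting chosen after seeing the data, the members' median was 1.68 (1.20 for Slc2a4 to 2.07 for Phkg1). All 10 lay above every WT array there, as did 24.3% of all genes. For the members this was fixed in advance, since every KO array lay above every WT array in the main comparison. The fit assumed that the lone array varies like WT.

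Outside the set, 8 genes lay closest to the members' median profile over the 6 arrays, out of 14249 with a usable symbol. Likeness was the root mean square difference of centred log2 values, and these 8 differed from the profile by 0.08 to 0.12. They were Dusp13 (0.08), a dual-specificity phosphatase, Tmem233 (0.09), the muscle chloride channel Clcn1 (0.09), the fast troponin T Tnnt3 (0.11), Adssl1 (0.11), the RING-finger protein Trim54 (0.12), Fitm1 (0.12), which acts in fat storage, and the GMP reductase Gmpr (0.12). Their own KO minus WT differences ran from 1.78 (Gmpr) to 2.0 (Tmem233). The choice by likeness to the members on these same arrays fixed such differences in advance. Clcn1 was dim, at −4.82 in WT replicate 3, where it was not well above background. It thus passed the filter only through KO, where it was higher. Among the members Pfkm, Eno3 and Pgam2 lay nearest to the shared profile, at 0.11 each. Fbp2 (0.48) and Mb (0.50) lay farthest from it.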

How the data were processed

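Intensity values of 1-colour arrays were deposited by the authors as output of Agilent Feature Extraction 11.5.1.1, background-subtracted and, per the file headers, not normalized between arrays. The deposited log2 value table carries group headings that stand against the scanner files: each of its 6 columns followed the array of the other group with the same replicate number (r across probes 0.94 to 0.96, against −0.59 to −0.22 for the array in its heading), so it served only as an alternative; the submitters' processing notes name limma without its role. Deposited flags of the other kind mark control, outlier and dim spots, per the file headers. Here, the processed signal was taken to log2 and scaled to the 75th percentile of its array, with spots averaged without outliers (31 of 55681 probes left out). Accessions were named through RefSeq (GRCm38.p6; 27497 probes named, 28153 not). A probe was kept if it stood well above background throughout at least 1 group (30082 probes), and the brightest stood for its gene. The KO and WT arrays were set against each other in R 4.3.3 with limma 3.58.1 (lmFit, eBayes, no covariate; two-sided, adjusted threshold 0.05), checked on simulated data. Members and lists were chosen with earlier results of these data known. Named were all members, their other forms, the 3 genes with the smallest p per pathway list, and the 8 genes of likest profile; other names were chosen after their values were seen. Alternatives covered scaling, background, filters, slide, replicate number, age and single arrays.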

Additional observations from a re-analysis of the deposited data

How the results depend on the processing

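Each member kept a positive difference and stayed uncalled under every other scaling, background correction, filter and probe rule, and with slide or replicate number as a block. Leaving out WT replicate 1 (8 members called) and age as a covariate (1 called, median 3.29) were the exceptions on the calls. Read as headed, the authors' value table turned every sign (median −2.02): −2.03 for Ckm, −2.14 for Ckmt2, −2.02 for Pygm, −2.16 for Phkg1, −2.03 for Pfkm, −1.95 for Eno3, −2.02 for Pgam2, −1.51 for Fbp2, −1.41 for Slc2a4 and −1.63 for Mb. Put on the arrays they follow, its columns gave a median of 2.02. Within slide 1 the median was 0.71.

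Over all genes, 5 were called. The count was 11 with quantile normalization, 8 with normexp on spot medians under either scaling and with the value table in either reading, 2 without a filter, 9 with probes well above background on all 6 arrays, 1 with slide as a block, 141 with age, and 76 without the pair on slide 1, a setting chosen after seeing the data. With KO replicate 3 as the only KO array, also chosen later, limma called 0 genes (1015 at an unadjusted p under 0.05). With 1 array left out it ran from 2 to 303, and the members called from 0 to 8. Cause was not tested in any of these cases. Normexp on mean signals was not run, because the scanner files used here hold medians; the form on medians was chosen after seeing the data.

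With the replicate number as a block, limma called 0 genes (2217 at an unadjusted p under 0.05), and the members' adjusted p ran from 0.438 to 0.514. Same-numbered arrays did not deviate together more than others (r across genes −0.13 to 0.08, against −0.08 to 0.13 for arrays of different number). With so few arrays this cannot exclude that same-numbered arrays share more than a number. The number of arrays limits precision throughout.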
